A study of Nothobranchius furzeri with 24 samples.

Results

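The 150 genes described here were those whose RNA level differed most among wild turquoise killifish of the same age and sex. They were taken from whole brains of 24 Nothobranchius furzeri of the wild population A41, an annual fish of temporary savannah pools, aged 39, 73 or 108 days post hatch (dph), and each age was represented by 4 females and 4 males. None of the fish had been treated. Ages rested on the flooding of the pool and on otoliths, and because the older fish were netted later in the season, age cannot be told apart from the date of capture. The level is RPM, in which a gene's reads are scaled to the number of reads assigned to genes in that library. Of 26739 genes in the table, 13864 had a median of 5 RPM or more over the 24 fish and were ranked. For each, the SD of log2(RPM + 0.5) was taken in each of the 6 groups of 4 fish, and the 150 genes with the largest median of the 6 SDs formed the list. This spread chose the members and is given only as a description. A gene symbol could be attached to 34 of the 150 members, against 48.4% of all ranked genes. Symbols came from the annotation columns of the study's gene lists, so having one may not be independent of a change with age. The other 116 members are named by locus. All 150 passed the filter on low counts and entered every edgeR test of age and sex in the main setting. With DESeq2, 146 of them were tested for age and for sex, and 147 for the interaction of the 2.

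In an animal the level of an RNA in a whole brain depends on how much of it each cell holds and on how many cells of each kind were sampled, and in bulk RNA fewer cells of a type and less RNA per cell cannot be told apart. Teleost brains carry the pituitary on a stalk below the hypothalamus, and the pituitary makes hormones such as prolactin and growth hormone that hardly any other cell makes. The telencephalon, the front part of the brain, has transcription factors of its own, and genes of the meninges, the blood and the surrounding tissue add to what is read in a dissected brain. Other genes respond quickly to neuronal activity or to stress hormones.

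The median SD of the members ran to 4.77 on the log2 scale at the top, with a median of 0.85 over the list, against 0.15 over the other ranked genes. The 3 members just inside the limit were Nfu_g_1_001437 at 0.634, Nfu_g_1_008933 at 0.633 and Nfu_g_1_005048 at 0.632. The 3 genes just outside it were Nfu_g_1_017454 at 0.630, Nfu_g_1_001975 at 0.627 and Nfu_g_1_019273 at 0.626. For 48 members the median SD was above 1, which is a doubling for each SD, and for 9 members it was above 2. The spread expected from counting reads alone had a median of 0.108, and the smallest ratio of a member's spread to its counting spread was 4.22. Members were lower in level than the other ranked genes, with a median of 13.3 against 31.4 RPM, or 5.98 against 11.4 RPKM, which is RPM per kilobase of transcript. Their median length was 2722.5 against 3064 bases.

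**Figure D1:**
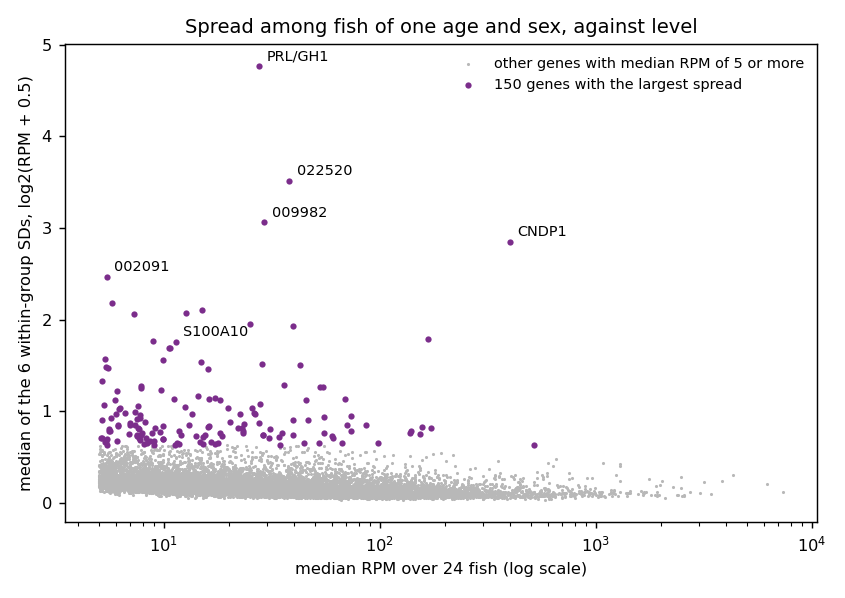
Median RPM over the 24 fish (x axis, log scale) against the median of the 6 within-group SDs of log2(RPM + 0.5) (y axis) for 13864 ranked genes, with the 150 members as large points. The growth hormone and prolactin family gene stands highest at 4.77, and labels made of digits are locus numbers without their prefix.

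The 6 groups were not alike in this spread. Over the members, the median SD was 0.874 in the 39 dph females, 0.514 in the 39 dph males, 0.884 in the 73 dph females, 0.946 in the 73 dph males, 0.836 in the 108 dph females and 0.845 in the 108 dph males. The 39 dph males had the smallest of the 6 SDs for 69 members, and 44 members had an SD under 0.25 there. Over the other ranked genes the groups ranged only between 0.134 and 0.190. The small spread in the 39 dph males did not hold for all modules described below. In group-centred log2 means these 4 fish lay between -0.093 and 0.114 for module 1, but between -1.84 and 1.90 for module 4. Some fish were low for many members at once. Replicate 1 of the 39 dph females was the lowest fish of its group for 90 of the 150 members and lay more than 1 log2 unit below its group's mean for 69, and replicate 2 of the 73 dph females was the lowest for 80. Of the members so far below the mean in that replicate 1, 42 belonged to module 1 and 12 to module 2, described below. Members that vary together are not independent, so counts of members by group or fish are not counts of separate observations. Libraries held between 4595506 and 19346170 reads assigned to genes, and replicates 4 of the 39 dph females and males, with 4595506 and 10019750 reads, were the shallowest. The members took between 0.285% and 2.89% of a library's reads, the most in the 39 dph female replicate 4. No 2 of the 276 pairs of libraries were identical.

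The gene with the largest spread was Nfu_g_1_002728, annotated as PRL and with human GH1 as its counterpart, a pituitary hormone of the prolactin and growth hormone family. It had 6.71, 3.18, 9.199 and 3690.3 RPM in the 39 dph females and 3101, 1679, 1.87 and 3.69 RPM in the 39 dph males. Females of 73 dph had 2893, 4233, 22.4 and 36.3 RPM and males of 73 dph had 2.37, 60.8, 4.47 and 32.8 RPM. Females of 108 dph had 2.16, 4192, 3.05 and 42.7 RPM and males of 108 dph had 4312, 2921, 5.07 and 2.54 RPM. Each of 8 fish had 1679 RPM or more and each of the other 16 had 60.8 RPM or less, with no fish between. The 8 high fish were 3 at 39 dph, 2 at 73 dph and 3 at 108 dph, and 4 of them were female and 4 male, so that 5 of the 6 groups held both kinds of fish and the 73 dph males held none of the high kind. It passed no test of age or sex (108 versus 39 dph, log2 fold change 0.47 ± 1.75, SE, adjusted p = 0.861, edgeR).

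The locus Nfu_g_1_008933, which stood at rank 149, had 7.91, 8.99, 8.36 and 19.8 RPM in the 39 dph females and 39.1, 18.5, 7.6 and 8.88 RPM in the 39 dph males. In the 73 dph females it was 15.1, 24.3, 8.96 and 9.74 RPM and in the 73 dph males 5.902, 9.56, 7.95 and 10.98 RPM. In the 108 dph females it was 6.97, 16.4, 6.93 and 6.05 RPM and in the 108 dph males 24.8, 20.7, 5.996 and 8.07 RPM. Its 8 highest fish were the same 8 fish, with the lowest of them at 15.1 RPM and the next fish at 11.0 RPM. Within the 8 high fish its level and that of the hormone gene had r = 0.16 and rho = 0.48, and within the other 16 fish r was 0.44 and rho 0.49. Outside the list, the named genes most alike, chosen by their values, were RASGRP3, an activator of Ras proteins, and INSM1, a transcription factor of neuroendocrine cells, which shared 6 and 5 of their 8 highest fish with it. Of 9 pituitary hormone symbols looked for, this gene's was the only one found, so no other hormone of the gland could be compared.

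Several other members were also split into separate levels rather than spread evenly. The second gene, Nfu_g_1_022520, had 0.284, 132, 1.01 and 1.31 RPM in the 39 dph females and 0.804, 8.96, 66.02 and 127 RPM in the 39 dph males. At 73 dph females had 106, 71.98, 1.05 and 8.52 RPM and males had 233, 0.439, 156 and 82.3 RPM. At 108 dph females had 299.8, 0.943, 175 and 0.486 RPM and males had 189.6, 10.2, 0.569 and 204 RPM. It was at or below 1.31 RPM in 9 fish, between 8.52 and 10.2 RPM in 3, and at 66.0 RPM or more in 12, and every group held fish of at least 2 of these levels. S100A10 (Nfu_g_1_001324), whose protein pairs with annexin A2, had 7.91, 58.9, 8.58 and 3.05 RPM in the 39 dph females and 11.9, 8.26, 7.88 and 7.38 RPM in the 39 dph males. Females of 73 dph had 78.5, 76.2, 11.3 and 5.96 RPM and males of 73 dph had 77.1, 8.46, 148 and 11.5 RPM. Females of 108 dph had 77.3, 10.3, 8.04 and 89.2 RPM and males of 108 dph had 16.7, 12.3, 78.9 and 6.55 RPM. Between 16.7 and 58.9 RPM no fish was found, with 16 fish below and 8 above this interval, of which 1 was of 39 dph, 4 of 73 dph and 3 of 108 dph.

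For each ranked gene the widest empty interval between neighbouring fish was taken, with at least 3 fish on each side. It was wider than 1 log2 unit for 35 of the 150 members and for 9 of the other ranked genes, and wider than 2 units for 8 members and none of the others. The widest were in the hormone gene, at 4.78 units, in Nfu_g_1_009982, at 4.69, and in CNDP1, at 3.79. OTUD7B (Nfu_g_1_011003), a deubiquitinating enzyme named here after its values were seen, was at 25.2 to 29.0 RPM in 4 fish and at 7.14 to 10.5 RPM in the other 20. The median interval was 0.56 units over the members and 0.098 over the other ranked genes, beside median SDs of 0.85 and 0.15. An interval widens with the spread that chose the members. These counts therefore cannot show that members were split into levels more than their spread entails.

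**Figure D2:**
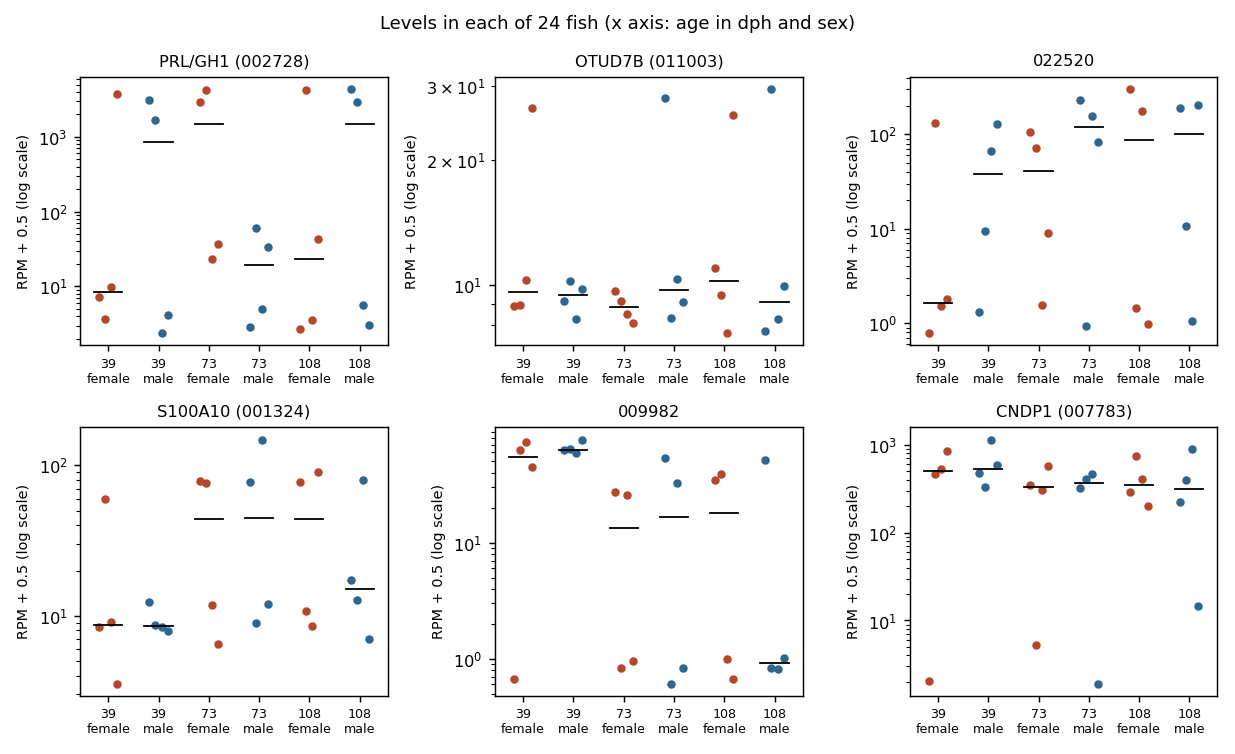
RPM + 0.5 (y axis, log scale) in each of the 24 fish for 6 members, with age in dph and sex on the x axis, females in red and males in blue, and a line at each group's median; digits in the panel titles are locus numbers without their prefix. The PRL/GH1 gene lies at 1679 RPM or more in 8 fish and at 60.8 RPM or less in 16, and CNDP1 is low in 4 fish.

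To find members that varied together, the mean of its group was taken from each fish's log2(RPM + 0.5), and genes were joined by their correlation over the 24 fish. Of the 11175 pairs of members, 8.55% had r of 0.8 or more, against 0.0619% of pairs of all ranked genes. The members were chosen by these same deviations within groups, and counting noise lowers r more in genes with a small spread. The difference can therefore follow in part from the choice of members. The tree held 4 modules of 4 or more genes, with 72 members in all, besides 4 sets of 3, 7 pairs and 52 members that joined no other. The modules are descriptions of these 24 fish and were not tested. Other ways of joining the genes gave between 3 and 7 modules. Modules 1 and 2 were correlated at r = 0.40 in their means and modules 3 and 4 at r = 0.74, and the other 4 pairs of modules lay between 0.05 and 0.30.

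**Figure D3:**
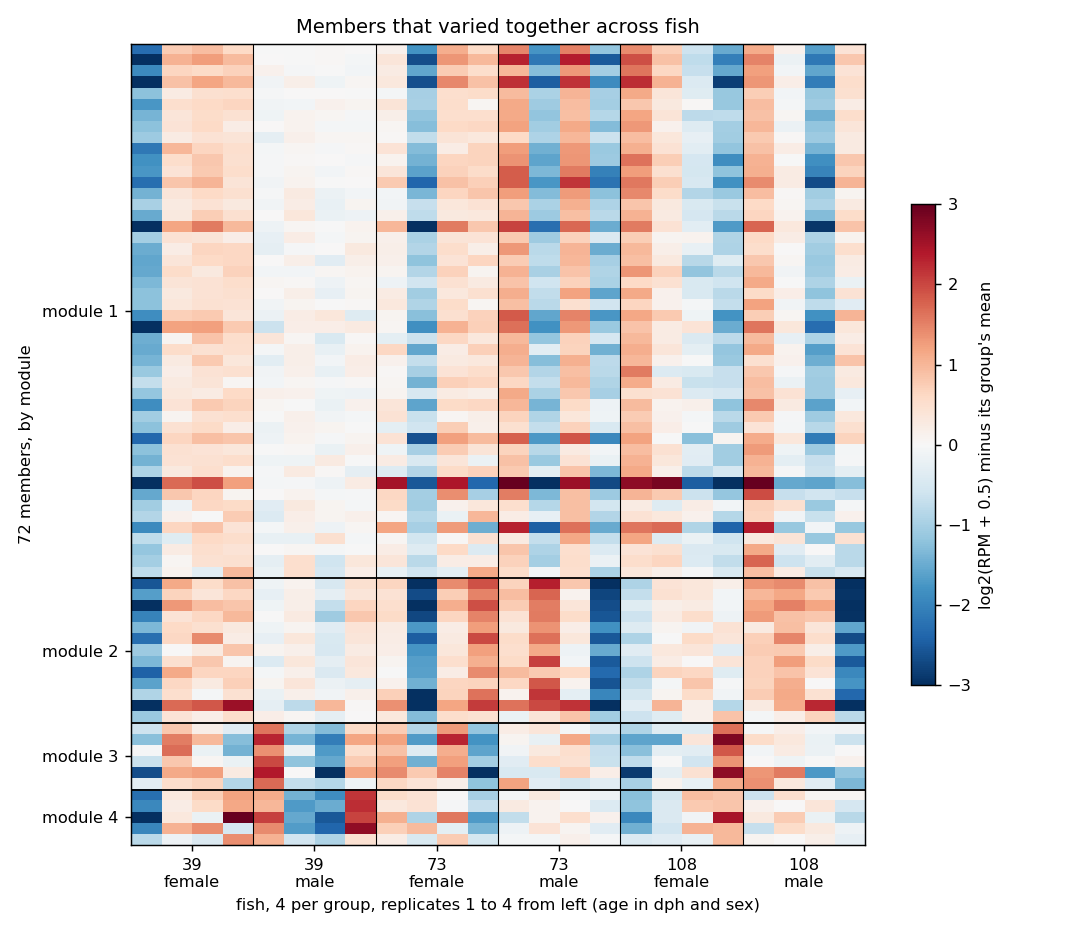
Each row is 1 of 72 members in the 4 modules and each column 1 of 24 fish, with colour for log2(RPM + 0.5) minus the mean of the fish's group (scale capped at 3 units either way). The fish low for module 1 (48 genes) and for module 2 (13 genes) overlap only in part, and the 39 dph males are nearly flat for module 1.

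Module 1 was the largest, with 48 members, a mean r of 0.86 and a lowest pairwise r of 0.44. Only 7 of them had a symbol, and these were the transcription factors BHLHE22 and FEZF2, the neuropeptide NPY, the receptor for corticotropin-releasing hormone CRHR1, the presynaptic protein SNCB (beta-synuclein), TMEM158 and ZNF831. The 6 members closest to the mean of the others were Nfu_g_1_015304, Nfu_g_1_010119, Nfu_g_1_016018, Nfu_g_1_017530, Nfu_g_1_017238 and Nfu_g_1_017791, with r between 0.98 and 0.99 and rho between 0.94 and 0.98. With the 2 most distant fish left out r was still between 0.97 and 0.99 for each of the 6.

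The module's level, the geometric mean of RPM + 0.5 over its 48 genes, was 7.71, 32.96, 37.5 and 34.5 RPM in the 39 dph females, 34.3, 39.6, 35.1 and 37.7 in the 39 dph males, 21.3, 7.67, 27.4 and 22.9 in the 73 dph females, 41, 8.09, 39.02 and 8.81 in the 73 dph males, 37.5, 23.4, 12.98 and 8.24 in the 108 dph females and 37.98, 17.5, 7.51 and 20.3 in the 108 dph males. Low fish, with a level of 8.81 RPM or less, were present in every group but the 39 dph males, and the 39 dph males stayed between 34.3 and 39.6 RPM. The lowest of these males was above the highest of the 73 dph females, at 27.4 RPM, and the other pairs of groups overlapped. That pair differs in both age and sex, was picked after the values were seen, and was not tested. The 4 males of 39 dph aside, the mean r over the other 20 fish was 0.87.

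The member of the module with the largest spread, Nfu_g_1_009982, was close to absent in the low fish. It had 0.171, 62.7, 73.2 and 44.6 RPM in the 39 dph females and 61.9, 63.9, 58.8 and 76.5 RPM in the 39 dph males. In the 73 dph females it was 26.6, 0.329, 25.4 and 0.445 RPM and in the 73 dph males 52.5, 0.110, 31.8 and 0.328 RPM. In the 108 dph females it was 34.4, 38.8, 0.485 and 0.162 RPM and in the 108 dph males 50.6, 0.334, 0.310 and 0.508 RPM. In 10 fish it was at 0.508 RPM or less, 56 reads in all, and in the other 14 at 25.4 RPM or more. These 10 fish included the 6 with the lowest module levels and 4 others with a module level between 12.98 and 22.9 RPM, replicate 4 of the 73 dph females, replicate 3 of the 108 dph females and replicates 2 and 4 of the 108 dph males. Nfu_g_1_018536, Nfu_g_1_017530, Nfu_g_1_010119, Nfu_g_1_004502 and Nfu_g_1_019199, also among the 20 genes with the largest spread, had median SDs of 2.11, 1.93, 1.79, 1.56 and 1.54.

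The named genes moved less steeply. BHLHE22 (Nfu_g_1_011330) had 18.4, 58.9, 67.03 and 51.1 RPM in the 39 dph females, 69.9, 74.9, 66.4 and 66.8 in the 39 dph males, 26.8, 10.2, 38.9 and 39.9 in the 73 dph females, 61.6, 12.6, 58.4 and 10.4 in the 73 dph males, 55.2, 24.4, 16.8 and 10.7 in the 108 dph females and 50.1, 22.1, 10.8 and 32.2 in the 108 dph males. NPY (Nfu_g_1_013133) had 23.7, 77.3, 74.9 and 71.2 RPM in the 39 dph females, 84.5, 87.3, 74.5 and 94.9 in the 39 dph males, 52.4, 28.5, 97.2 and 75.5 in the 73 dph females, 122, 42.7, 93.3 and 72.1 in the 73 dph males, 92.1, 66.7, 38.7 and 23.2 in the 108 dph females and 139, 52.6, 26.9 and 54.6 in the 108 dph males. In both genes replicate 1 of the 39 dph females was the lowest fish of its group, and the 39 dph males lay close together. CRHR1 (Nfu_g_1_016637) had between 7.54 and 125 RPM over all fish and SNCB (Nfu_g_1_006572) between 20.1 and 142 RPM. FEZF2 (Nfu_g_1_003785) had between 1.82 and 12.2 RPM.

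Many genes below the limit of the list followed the same fish. Of the ranked genes outside the list, 738 had r of 0.6 or more with the module's mean and 217 had r of 0.8 or more, while 342 had r of -0.6 or less. Among those with a symbol the closest, chosen here by their values, were the purinergic receptor P2RY1, with r = 0.95 and levels between 28.5 and 77.3 RPM, and the postsynaptic protein BEGAIN, with r = 0.95 and levels between 85.2 and 209 RPM. The most opposite were the G protein subunit GNAI2, with r = -0.84, and GFRA1, a receptor of glial-derived neurotrophic factor, with r = -0.84. Of the list of hypothalamic neuropeptides, 6 of 30 symbols were found. TAC1 and ADCYAP1 had r = 0.91 and r = 0.90 with the module, SST had r = 0.52, and CCK and AVP had r = 0.10 and r = 0.09.

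Markers of brain regions were set beside the module, on lists drawn up after the values were seen. Of 20 telencephalon symbols 4 were found, of which BHLHE22 and FEZF2 were members. The other 2, NEUROD2 and EOMES, had r = 0.68 and r = 0.46 with the module's mean. The summed level of the 4 genes ranged between 268 and 352 RPM in the 39 dph females, 333 and 375 RPM in the 39 dph males, 203 and 319 RPM in the 73 dph females, 113 and 399 RPM in the 73 dph males, 215 and 312 RPM in the 108 dph females, and 221 and 366 RPM in the 108 dph males. Most of that sum came from NEUROD2, with a median of 184 RPM, against 59.7 RPM for EOMES, 39.4 for BHLHE22 and 5.59 for FEZF2. The last 2 count in both the sum and the module, so their part is not separate from it. Of 18 cerebellum and hindbrain symbols 9 were found, and for the 9 ranked loci of that list r lay between -0.27 and 0.13. Replicate 4 of the 73 dph males stood apart in these markers, with 9.17 RPM of EOMES, against 36.8 RPM or more in the other 23 fish, and 604 RPM over the cerebellum and hindbrain list, against 1647 RPM or more. The part of unequal brain regions in the module was not tested.

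Module 2 held 13 members with a mean r of 0.90, of which 2 had a symbol. CNDP1 (Nfu_g_1_007783), a dipeptidase that in mammals splits carnosine, was by far its most abundant gene, at a median of 263 RPKM. It had 1.54, 466, 522 and 839 RPM in the 39 dph females and 471, 327, 1136 and 584 RPM in the 39 dph males. At 73 dph females had 349, 4.83, 306 and 575 RPM and males had 320.1, 407, 466 and 1.42 RPM. At 108 dph females had 291, 739, 403 and 202 RPM and males had 223, 396, 887 and 14.1 RPM. Only 4 fish were at 14.1 RPM or less, and no fish lay between 14.1 and 202 RPM. NET1 (Nfu_g_1_020656) had a median of 1.78 RPKM and a median SD of 0.70. In all 13 members the 4 lowest fish were the same 4: replicate 1 of the 39 dph females, replicate 2 of the 73 dph females, replicate 4 of the 73 dph males and replicate 4 of the 108 dph males. The module's level was 1.46, 10.6, 9.91 and 10.6 RPM in the 39 dph females, 13.6, 15.9, 11.8 and 18.1 in the 39 dph males, 11.1, 1.47, 13.05 and 22.4 in the 73 dph females, 13.8, 27.2, 12.3 and 1.496 in the 73 dph males, 6.89, 12.6, 13.5 and 10.7 in the 108 dph females and 14.6, 18.2, 14.2 and 1.56 in the 108 dph males. It was at 1.56 RPM or less in those 4 fish, and no other fish was below 6.89 RPM.

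The other members of the module had lower levels, and in the same 4 fish their highest values ranged between 0.227 RPM, for Nfu_g_1_012979, and 6.03 RPM, for Nfu_g_1_020348. Nfu_g_1_013166 had 0.398, 11.3, 7.35 and 9.36 RPM in the 39 dph females and 12.2, 14.5, 9.41 and 18.96 RPM in the 39 dph males. Females of 73 dph had 11.8, 0, 20.3 and 28.96 RPM and males of 73 dph had 12.1, 39.4, 13.3 and 0.055 RPM. Females of 108 dph had 5.74, 15.3, 14.6 and 13.02 RPM and males of 108 dph had 23.6, 25.01, 17.01 and 0.282 RPM. The same 4 fish were at 0.398 RPM or less. Nfu_g_1_012979 and Nfu_g_1_021983 were at 0.227 RPM or less and at 0.512 RPM or less in the 4 fish, and Nfu_g_1_006592 and Nfu_g_1_005336 at 2.403 and 0.960 RPM or less. The 6 members closest to the mean of the others were Nfu_g_1_013166, Nfu_g_1_021983, Nfu_g_1_006592, Nfu_g_1_012979, Nfu_g_1_008240 and Nfu_g_1_005336, with r between 0.97 and 0.99. Because the 4 fish are so far from the rest, correlations over all 24 fish rest largely on them. Over the other 20 fish the mean r within the module was 0.53, and for CNDP1 with its 12 companions it was 0.01, between -0.15 and 0.20. Outside the list only 4 genes had r of 0.8 or more with the module, and the closest with a symbol was LIG1, a DNA ligase, at r = 0.81 with levels between 24.4 and 54.7 RPM.

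**Figure D4:**
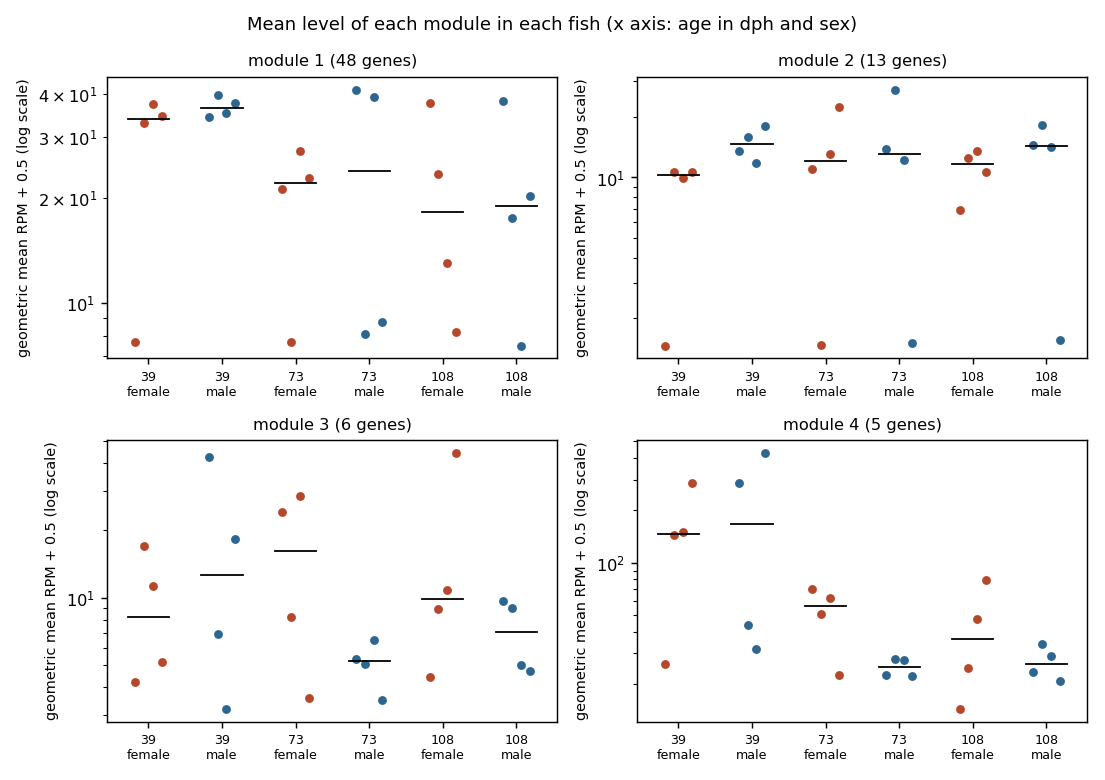
Geometric mean of RPM + 0.5 over the genes of each module (y axis, log scale) in each fish, with age in dph and sex on the x axis, females in red and males in blue, and a line at each group's median. Module 2 is at 1.56 RPM or less in 4 fish and at 6.89 RPM or more in the other 20, and module 1 varies little in the 39 dph males.

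Module 3 held 6 members with a mean r of 0.77, among them VWA5A (Nfu_g_1_003470) and the loci Nfu_g_1_002550, Nfu_g_1_024908, Nfu_g_1_018535 and Nfu_g_1_021825. Nfu_g_1_024908 had 8.42, 60.8, 41.3 and 8.27 RPM in the 39 dph females and 166, 12.5, 7.66 and 76.4 RPM in the 39 dph males. In the 73 dph females it was 56.1, 7.02, 119 and 6.63 RPM and in the 73 dph males 7.59, 6.097, 16.7 and 3.28 RPM. In the 108 dph females it was 7.16, 7.16, 28.6 and 157 RPM and in the 108 dph males 11.2, 9.41, 6.46 and 4.63 RPM. It was highest in replicate 1 of the 39 dph males, at 166 RPM, and replicate 4 of the 108 dph females, at 157 RPM, and lowest in replicate 4 of the 73 dph males. Of 12 epithelium and skin symbols 2 were found and neither passed 5 RPM in the median, so their part in the module was not tested.

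Module 4 held 5 members with a mean r of 0.79, among them the 2 chains of type I collagen that the annotation names, COL1A2 (Nfu_g_1_013298) and COL1A1B (Nfu_g_1_023149, whose human counterpart is also given as COL1A2). COL1A2 had 15.2, 92.7, 126 and 172 RPM in the 39 dph females, 181, 30.97, 22.4 and 370.0 in the 39 dph males, 34.4, 31.8, 23.3 and 11.3 in the 73 dph females, 14.02, 17.96, 14.1 and 13.1 in the 73 dph males, 5.801, 9.93, 28.1 and 26.1 in the 108 dph females and 7.59, 17.4, 12.6 and 12.6 in the 108 dph males. COL1A1B had 26.7, 121, 154 and 234 RPM in the 39 dph females, 198, 30.1, 34.7 and 459 in the 39 dph males, 39.5, 42.8, 30.9 and 19.5 in the 73 dph females, 27.5, 24.3, 22.8 and 16.9 in the 73 dph males, 9.13, 16.04, 37.8 and 39.1 in the 108 dph females and 22.01, 20, 25.8 and 13.9 in the 108 dph males. The 2 genes varied together, with r = 0.96 and rho = 0.90, and r = 0.94 without the 2 shallowest libraries, and the 5 highest fish of either gene were all of 39 dph. Both were low in 3 fish of that age, replicate 1 of the females and replicates 2 and 3 of the males. The other members were Nfu_g_1_017106, Nfu_g_1_018490 and Nfu_g_1_001437, the last with a median of 519 RPM and 2204 RPM in replicate 4 of the 39 dph females. On the connective tissue and meninges list, 7 of 21 symbols were found at 9 loci, and their summed level, these 2 genes included, ranged between 272 and 727 RPM in the 39 dph females, 302 and 1343 RPM in the 39 dph males, and 231 and 421 RPM in all older fish.

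A further set of 3 members was highest in the 2 shallowest libraries. Nfu_g_1_002091 had 7.91, 10.8, 30.1 and 14843 RPM in the 39 dph females, 1.5, 0.755, 1.93 and 1593 in the 39 dph males, 0.524, 86.7, 5.42 and 5.51 in the 73 dph females, 33.6, 1.32, 0.824 and 0.765 in the 73 dph males, 0.679, 1.72, 24.7 and 14.1 in the 108 dph females and 3.02, 0.557, 16.1 and 10.6 in the 108 dph males. Nfu_g_1_022849 had 4.15, 4.17, 5.55 and 1874 RPM in the 39 dph females, 4.71, 1.24, 1.99 and 181 in the 39 dph males, 3.15, 36.6, 8.96 and 4.79 in the 73 dph females, 22.3, 4.45, 2.83 and 5.73 in the 73 dph males, 4.505, 3.94, 17.8 and 8.38 in the 108 dph females and 6.75, 4.23, 7.805 and 9.597 in the 108 dph males. Both were highest by far in replicates 4 of the 39 dph females and of the 39 dph males, and Nfu_g_1_009525, the third of the set, was highest in them too, at 71.6 and 14.7 RPM. Nfu_g_1_014209, also among the 6 most variable genes, had 9.84, 12.01, 25.1 and 1.74 RPM in the 39 dph females and 0.911, 0.863, 1.59 and 6.49 RPM in the 39 dph males. At 73 dph females had 0.757, 77.7, 12.2 and 6.63 RPM and males had 30.7, 2.58, 0.353 and 0.546 RPM. At 108 dph females had 0.247, 4.995, 30.2 and 19.3 RPM and males had 4.99, 0.613, 20.3 and 19.02 RPM. It was not highest in the 2 shallow libraries. Over the other 22 fish Nfu_g_1_002091 and Nfu_g_1_014209 had r = 0.97, and over all 24 r = 0.45 and rho = 0.56. Nfu_g_1_002091 and Nfu_g_1_022849 also varied together over those 22 fish, at r = 0.89, and over all 24 had r = 0.95 and rho = 0.90. TPM1, a tropomyosin outside the list, had 1302 and 277 RPM in the same 2 libraries and between 153 and 195 RPM in the other 22. It was picked by its values, with r = 0.72 to Nfu_g_1_002091. Other named genes followed closely, among them HNRNPH2 at r = 0.69 and RPS23 at r = 0.66. The summed skeletal muscle list, with 3 of 25 symbols found, was at 398 and 361 RPM there, within the range of 261 to 475 RPM of the other fish. Most of that sum came from MB (Nfu_g_1_013709), with a median of 303 RPM. MYL1, on the same list, had a median of 0.729 RPM and a highest value of 87.3 RPM, which the sum hides. The other loci of the list varied less. TNNT3 was between 9.81 and 28.3 RPM over all fish, and the loci of MB were between 200 and 385, 12.1 and 22.4, and 21.2 and 52.1 RPM. The part of muscle tissue in this set was not tested.

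Outside the modules, FKBP5 (Nfu_g_1_021435), a co-chaperone of the glucocorticoid receptor that glucocorticoids induce, had 8.47, 40.5, 39.8 and 111 RPM in the 39 dph females and 24.1, 19.5, 20.9 and 84.4 RPM in the 39 dph males. Females of 73 dph had 90.9, 22.3, 21.1 and 45.5 RPM and males of 73 dph had 29.2, 20.7, 31.8 and 8.79 RPM. Females of 108 dph had 85.7, 37.3, 28.4 and 16.4 RPM and males of 108 dph had 16.3, 73.3, 15.9 and 18.8 RPM. Its 5 highest fish, at 73.3 RPM or more, were replicate 4 of the 39 dph females, replicate 4 of the 39 dph males, replicate 1 of the 73 dph females, replicate 1 of the 108 dph females and replicate 2 of the 108 dph males. Its closest member was Nfu_g_1_008967, with r = 0.86 and rho = 0.82, and the closest genes with a symbol outside the list, named after their values were seen, were EIF4G2, SSH2, COQ10A and KLF13, with r between 0.93 and 0.95. The other 6 ranked genes of the glucocorticoid-responsive list, among them PER1, NR3C1 and SGK1, had median SDs between 0.0867 and 0.355, against 0.983 for FKBP5. Nfu_g_1_017139 and Nfu_g_1_017179 varied as a pair, with r = 0.95 and rho = 0.94. The other sets of 3 were Nfu_g_1_003370 with Nfu_g_1_021146 and Nfu_g_1_024682, at a mean r of 0.71, and Nfu_g_1_022505 with Nfu_g_1_011126 and Nfu_g_1_010935, at 0.79. Looser pairs, with r between 0.61 and 0.69, were the tetraspanin TSPAN8 with the phosphatase PTPRR, the protease CORIN with Nfu_g_1_009022, CD74 with Nfu_g_1_010175, the extracellular matrix link protein HAPLN2 with Nfu_g_1_013462, and Nfu_g_1_000643 with Nfu_g_1_007368. Members with a symbol that joined no other and passed no test included APOB, a lipoprotein of the blood, and the transcription cofactor EYA4, with median SDs of 0.85 and 0.74. No circadian clock, heat shock, red blood cell, myelin, interferon, proliferation, neuron or astroglia gene of the lists was a member. These lists held between 6 and 24 ranked loci each, and the members were 1.08% of all ranked genes. Absence from lists this short says little.

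Age was tested with edgeR's quasi-likelihood test over all 19358 genes that passed the count filter, with sex in the model and Benjamini-Hochberg adjustment. Each library came from a separate fish, so the p-values rest on the spread between animals. Between 108 and 39 dph, 18 of the 150 members passed, 6 higher and 12 lower. Of all genes tested 38.0% passed, 19.0% higher and 19.0% lower. Between 73 and 39 dph, 12 members passed, 1 higher and 11 lower, against 20.7% of all genes, 10.4% higher and 10.3% lower. Without replicate 4 of the 39 dph females 7 members passed, against 19.0% of all genes. Between 108 and 73 dph 3 members passed, all higher, against 9.27% of all genes, 4.27% higher and 5.01% lower, and 5 passed without replicate 4 of the 108 dph males, against 10.3%. For 108 versus 39 dph the median of the absolute log2 fold changes was 0.45 over the members and 0.25 over all genes. The standard errors of the members had a median of 0.42, against 0.12 over all genes. The choice of members by spread entails larger standard errors. Larger absolute fold changes follow in part from that choice too, even where age has no effect. In all, 23 members passed in at least 1 of the 3 comparisons. The 9 that passed in both comparisons with 39 dph had the same sign in both, and these comparisons share the 39 dph fish. For no member were the values at one age all above or all below those at another. Of all ranked genes this held for 11.8% between 108 and 39 dph, 5.94% between 73 and 39 dph and 1.39% between 108 and 73 dph. A wide spread within groups makes ages overlap, so this contrast follows at least in part from the choice of members.

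The collagen genes were among the clearest falls with age. COL1A2 had a lowest, median and highest level of 15.2, 109 and 370.0 RPM at 39 dph, 11.3, 16.02 and 34.4 at 73 dph and 5.801, 12.6 and 28.1 at 108 dph. It was lower at 108 dph (log2 fold change -3.13 ± 0.53, SE, adjusted p = 6.36e-05) and at 73 dph (log2 fold change -2.72 ± 0.53, SE, adjusted p = 0.000702) than at 39 dph. COL1A1B had 26.7, 138 and 459 RPM at 39 dph, 16.9, 25.9 and 42.8 at 73 dph and 9.13, 21.01 and 39.1 at 108 dph, and was lower at 108 dph (log2 fold change -2.81 ± 0.49, SE, adjusted p = 8.01e-05) and at 73 dph (log2 fold change -2.53 ± 0.48, SE, adjusted p = 0.000649). The ranges of the ages overlapped, since 3 fish of 39 dph had between 15.2 and 30.97 RPM of COL1A2. Without the 2 shallowest libraries, both of 39 dph, the log2 fold change of COL1A2 was -2.43 at 108 dph and -2.03 at 73 dph, and that of COL1A1B -2.05 and -1.77, with adjusted p of 0.00460 or less. Nfu_g_1_018490 fell in the same comparisons (log2 fold change -3.33 ± 0.68, SE, adjusted p = 0.000429 for 108 versus 39 dph), and of the 5 members of module 4 only Nfu_g_1_001437 did not pass in either. Nfu_g_1_017106 passed in both, but without these libraries its log2 fold change was -1.84 at 108 dph and -1.99 at 73 dph, at adjusted p of 0.0937 and 0.116. On the connective tissue list 2 of 9 tested loci were higher and 5 lower at 108 than at 39 dph, against 19.0% higher and 19.0% lower of all genes tested. The 5 lower loci include COL1A2 and COL1A1B themselves, so this count is not separate from their fall. The 2 loci of COL10A1, also called, had medians of only 1.41 and 0.834 RPM.

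FOSB (Nfu_g_1_000355), a transcription factor induced by neuronal activity, had 26.2, 82.7, 83.1 and 75.7 RPM in the 39 dph females and 60.4, 61.2, 73.05 and 71.9 RPM in the 39 dph males. In the 73 dph females it was 11.9, 11.7, 27.1 and 41.7 RPM and in the 73 dph males 10.1, 8.95, 21.5 and 25.2 RPM. In the 108 dph females it was 10.9, 13.8, 16.1 and 42.7 RPM and in the 108 dph males 7.88, 7.298, 8.27 and 17.5 RPM. It was lower at 108 dph (log2 fold change -2.20 ± 0.35, SE, adjusted p = 2.47e-05) and at 73 dph (log2 fold change -1.81 ± 0.34, SE, adjusted p = 0.000506) than at 39 dph. All fish of 39 dph but replicate 1 of the females were at 60.4 RPM or more, and all older fish were at 42.7 RPM or less. FOSB was the only member among 20 tested loci of the immediate early list, of which 2 were higher and 11 lower at 108 than at 39 dph. Of all genes tested 19.0% were higher and 19.0% lower in that comparison. FOS had a median SD of 0.562, EGR1 of 0.368 and FOSB of 0.766.

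The 2 largest falls of all, in Nfu_g_1_002091 (log2 fold change -7.25 ± 1.90, SE, adjusted p = 0.00393) and Nfu_g_1_022849 (log2 fold change -4.53 ± 1.31, SE, adjusted p = 0.008) between 108 and 39 dph, rested on the 2 shallowest libraries. Without those, the log2 fold changes turned to 0.57 and 1.14, with adjusted p of 0.720 and 0.109. Between 73 and 39 dph the fall of both genes likewise turned, to 1.26 and 1.62, with adjusted p of 0.444 and 0.0449.

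In module 1 the direction was nearly uniform and the calls few. Of its 48 genes, 47 had a fitted level below that of 39 dph at 108 dph, with a median log2 fold change of -0.60, and 4 passed: Nfu_g_1_002988 (log2 fold change -1.56 ± 0.30, SE, adjusted p = 0.000215), BHLHE22 (log2 fold change -1.09 ± 0.40, SE, adjusted p = 0.0328), Nfu_g_1_006188 and Nfu_g_1_012815. At 73 dph 47 were below 39 dph as well, with a median of -0.52, and Nfu_g_1_012682 and Nfu_g_1_002988 passed. Of all genes tested 38.0% passed between 108 and 39 dph and 20.7% between 73 and 39 dph. Since the 48 genes vary together across fish, these counts are not independent of each other. Without the 2 shallowest libraries BHLHE22, Nfu_g_1_006188 and Nfu_g_1_012815 no longer passed, at adjusted p of 0.0595, 0.0691 and 0.0642, with log2 fold changes of -1.08, -0.77 and -0.79. At 73 dph Nfu_g_1_002988 and Nfu_g_1_012682 then had -0.76 and -0.85, at adjusted p of 0.102 and 0.0861. None of the 13 genes of module 2 or the 6 of module 3 passed in any comparison of ages, where 38.0%, 20.7% and 9.27% of all genes passed. For 108 versus 39 dph the median standard error was 0.36 in module 1, 0.53 in module 2 and 0.52 in module 3. Over all genes it was 0.12. The few calls thus follow in part from the choice of members by spread. At 73 dph the epithelial ubiquitin ligase CBLC (Nfu_g_1_001191, log2 fold change -1.32 ± 0.36, SE, adjusted p = 0.01003) and EVPL (Nfu_g_1_013869, log2 fold change -1.06 ± 0.32, SE, adjusted p = 0.0192), a protein of the cornified envelope, were lower than at 39 dph. Without the 2 shallowest libraries EVPL had a log2 fold change of -0.997 at an adjusted p of 0.0519. Nfu_g_1_007014 was lower at 108 dph (log2 fold change -1.02 ± 0.34, SE, adjusted p = 0.0207).

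The 6 members that were higher at 108 than at 39 dph belonged to none of the 4 modules. Nfu_g_1_010175 had 11.1, 20.9 and 30.1 RPM at 39 dph, 9.77, 42.1 and 51.3 at 73 dph and 15.3, 56.3 and 199 at 108 dph as lowest, median and highest level and was higher at 108 dph (log2 fold change 1.74 ± 0.38, SE, adjusted p = 0.000798). Nfu_g_1_021249 had 3.21, 8.16 and 15.7 RPM at 39 dph, 4.88, 8.46 and 13.4 at 73 dph and 7.49, 23.9 and 45.9 at 108 dph, and was higher at 108 dph than at 39 dph (log2 fold change 1.47 ± 0.32, SE, adjusted p = 0.00078) and than at 73 dph (log2 fold change 1.47 ± 0.32, SE, adjusted p = 0.00546). By contrast, Nfu_g_1_002364, with 6.98, 18.98 and 27.8 RPM at 39 dph, 17.4, 47.6 and 112 at 73 dph and 11.6, 47.1 and 68.98 at 108 dph, was higher at both 108 dph (log2 fold change 1.22 ± 0.35, SE, adjusted p = 0.00758) and 73 dph (log2 fold change 1.54 ± 0.35, SE, adjusted p = 0.00299) than at 39 dph. The others were Nfu_g_1_009022 and 2 genes of mitochondrial carriers of the uncoupling protein family. SLC25A14 (Nfu_g_1_019882) had 2.25, 8.197 and 15.3 RPM at 39 dph, 3.096, 10.5 and 22.1 at 73 dph and 11.3, 19.8 and 25.5 at 108 dph (log2 fold change 1.21 ± 0.37, SE, adjusted p = 0.0118), and UCP2 (Nfu_g_1_005432) had 1.19, 3.77 and 9.22 RPM at 39 dph, 0.823, 4.49 and 7.52 at 73 dph and 4.01, 6.699 and 38.3 at 108 dph (log2 fold change 1.44 ± 0.52, SE, adjusted p = 0.0329).

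**Figure D5:**
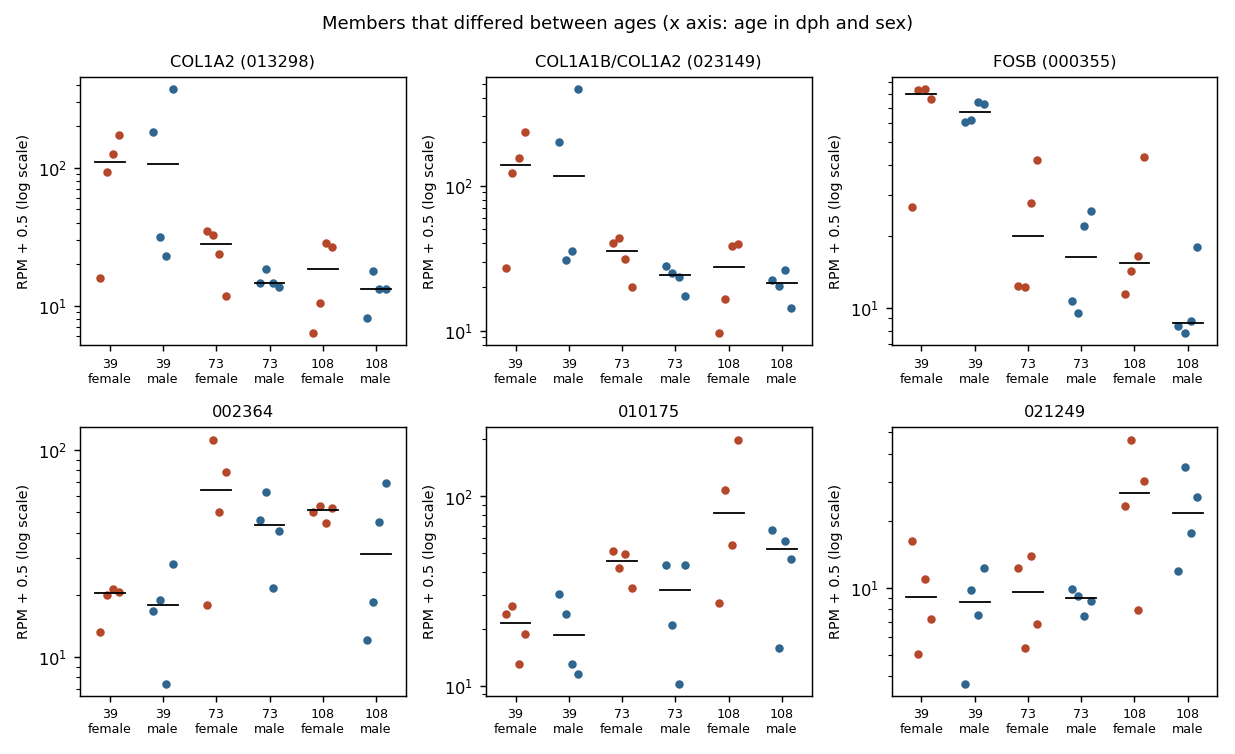
RPM + 0.5 (y axis, log scale) in each of the 24 fish for 6 members that passed the test of age, with age in dph and sex on the x axis, females in red and males in blue, and a line at each group's median; digits in the panel titles are locus numbers without their prefix. COL1A2 is at 92.7 RPM or more in 5 fish, all of 39 dph, while Nfu_g_1_021249 is high mainly at 108 dph.

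Besides Nfu_g_1_021249, the members higher at 108 than at 73 dph were Nfu_g_1_003370, with 4.29, 34.3 and 58.4 RPM at 39 dph, 1.15, 12.1 and 30.5 at 73 dph and 1.52, 87.6 and 114 at 108 dph (log2 fold change 2.45 ± 0.64, SE, adjusted p = 0.0168), and CD74 (Nfu_g_1_002972), the invariant chain of class II antigen presentation, with 8.08, 15.2 and 22.3 RPM at 39 dph, 3.53, 8.84 and 17.5 at 73 dph and 7.73, 15.3 and 28.96 at 108 dph (log2 fold change 0.95 ± 0.30, SE, adjusted p = 0.0466). In both the median at 73 dph was the lowest of the 3 ages. CD74 was at the edge of the threshold, and its adjusted p was between 0.0516 and 0.0541 without a count filter, with robust estimation, with 6 group means and without the 2 shallowest libraries. It lost its call with 17 of the 24 fish, each left out in turn. Between 108 and 39 dph Nfu_g_1_012815 lost its call with 8 fish, UCP2, BHLHE22 and Nfu_g_1_006188 with 7 each, and Nfu_g_1_007014 and Nfu_g_1_022849 with 1 each. Between 73 and 39 dph Nfu_g_1_002988 lost its call with 11 fish, Nfu_g_1_012682 with 8, Nfu_g_1_002091 and Nfu_g_1_022849 with 2 each and Nfu_g_1_017106 with 1.

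No member passed the test between females and males, where 0.0517% of all genes tested passed, 0.0465% higher and 0.00517% lower in females. At an unadjusted p under 0.05 there were 6 members (4.00%) with edgeR, against 7.46% of all genes, and 13 of the 146 members with DESeq2, against 7.59% of its genes. DESeq2 called none of these 146 either, and 0.228% of all genes. Absolute log2 fold changes of females over males had a median of 0.33 over the members and 0.07 over all genes, with a median standard error of 0.34 over the members. Here too the larger values follow in part from the choice of members by spread. The largest of those 6 was in Nfu_g_1_017106, at 1.66 ± 0.67 (SE, adjusted p = 0.610, edgeR). In module 3 all 6 genes had a higher fitted level in females, with a median of 0.69, and in module 2 12 of 13 had a lower one, with a median of -0.48. In module 1, 44 of 48 genes were lower in females, with a median of -0.25, and in module 4 all 5 were higher, with a median of 0.23. None of these passed. The genes of a module vary together across fish, so these counts are not independent of each other. A test of sex by age, with both interaction terms in 1 test, also called no member, where 0.00517% of all genes passed. At an unadjusted p under 0.05 there were 10 members (6.67%) with edgeR, against 5.35% of all genes, and 11 of 147 with DESeq2, against 5.24% of its genes. DESeq2 called none of these 147, and 0.0131% of all genes.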

How the data were processed

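Whole-brain poly(A) RNA of 24 fish was sequenced by the authors as stranded single-end libraries of 51 cycles. Per the submitters' processing notes, bcl2fastq 1.8.4, TopHat2 2.1.0 and featureCounts 1.5.0 were used. The authors deposited read counts per gene, RPM (scaled to each library's gene-assigned reads) and RPKM (RPM per kilobase), all of which were used here. RPM recomputed from the counts differed from the deposited values by at most 4.91e-11.

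Groups of 4 fish (6 of them, by age and sex) came from the sample labels. The paper's text gives a smaller total of wild samples at these ages than the labels do. The sources used here give neither dissection days nor library batches. Counts ranged between 4595506 and 19346170 per library. The tests were edgeR 4.0.16 quasi-likelihood tests (R 4.3.3) on counts with a model of sex and age, TMM factors between 0.9403 and 1.0192, filterByExpr with a minimum count of 10, and Benjamini-Hochberg adjustment at 0.05. A model with sex by age terms gave the interaction. The standard errors given with edgeR fold changes were derived from the test. Each is the absolute log2 fold change divided by the square root of the F statistic. Scripts were tested on simulated data. Co-variation used Pearson correlation of group-centred log2(RPM + 0.5), with average linkage on 1 minus r, divided at 0.4, and modules of 4 or more genes were described.

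The members and gene lists were chosen with earlier results of these data known, and the telencephalon and the cerebellum and hindbrain lists after the values were seen. Genes were named by rule: the 20 members with the largest spread, up to 10 rises and 10 falls per comparison, members on a gene list, up to 6 members closest to each module's mean, 3 genes on each side of the limit, and members sharing a human symbol. Others were named after their values were seen, among them P2RY1, BEGAIN, LIG1, TPM1, OTUD7B and the members of the small sets. Alternatives were DESeq2 1.42.0, other filters, scalings, pseudocounts and distances, an adjusted p of 0.01, and leaving out each fish or the 2 shallowest libraries. The RefSeq gene table matched none of the gene identifiers and was not used. No sequences are shown, and the values of a few members are not reported here.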

Additional observations from a re-analysis of the deposited data

Results flagged for a closer look

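Library totals, the means of the 4 modules and 16 genes were each examined in the 6 groups of 4 fish, which gave 126 sets of 4 values. In 23 of these sets, 1 fish stood far from the other 3. Its gap to its nearest neighbour, as a share of the group's range, exceeded Dixon's critical value. Chance alone gives about 1 in 20 such sets, and the genes examined were chosen for their spread, so many were to be found. The sets reuse the same fish and hold genes that vary together, so they are not separate observations.

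Library totals of 4595506 reads in replicate 4 of the 39 dph females and 10019750 reads in replicate 4 of the 39 dph males were far below those of the other fish of their groups. In the same female, the prolactin and growth hormone family gene GH1 (Nfu_g_1_002728) had 3690.3 RPM, against 3.18 to 9.199 RPM in the other 3, OTUD7B had 26.1 RPM and Nfu_g_1_022849 1874 RPM. In the male, Nfu_g_1_002091 had 1593 RPM, against 0.755 to 1.93 RPM in the other 3, and FKBP5 had 84.4 RPM.

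Replicate 1 of the 39 dph females was far below its group in the group-centred log2 means of module 1, at -1.64, and module 2, at -2.12. It had 0.171 RPM of Nfu_g_1_009982, 1.54 RPM of CNDP1, 12.4 RPM of CRHR1, 23.7 RPM of NPY and 26.2 RPM of FOSB, each the lowest of its group. Replicate 2 of the 39 dph females had 132 RPM of Nfu_g_1_022520, against 1.31 RPM or less in the other 3.

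At 73 dph, female replicate 2 had 4.83 RPM of CNDP1 and 14.6 RPM of CRHR1. Male replicate 4 had 1.42 RPM of CNDP1, against 320.1 to 466 RPM in the other 3, and male replicate 1 had 33.6 RPM of Nfu_g_1_002091.

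Among the 108 dph males, replicate 4 was at -2.49 in the mean of module 2 and had 17.5 RPM of FOSB, replicate 1 had 50.6 RPM of Nfu_g_1_009982, against 0.310 to 0.508 RPM in the other 3, and replicate 2 had 73.3 RPM of FKBP5.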

How the results depend on the processing

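At an adjusted p of 0.01, 11 members passed between 108 and 39 dph, 6 between 73 and 39 dph and 1 between 108 and 73 dph, where 26.4%, 10.9% and 2.97% of all genes passed. DESeq2 called 16, 13 and 5 of 146 members and 36.3%, 22.4% and 11.8% of all genes. Without the 2 shallowest libraries 7 passed between 73 and 39 dph, 2 higher and 5 lower, against 16.9% of all genes, and 12 between 108 and 39 dph, 6 higher and 6 lower, against 35.2%. Nfu_g_1_002091 and Nfu_g_1_022849 then turned to log2 fold changes of 0.57 and 1.14 at 108 dph and of 1.26 and 1.62 at 73 dph. Leaving out each fish in turn gave 15 to 25 calls between 108 and 39 dph, 7 to 14 between 73 and 39 dph, 2 to 5 between 108 and 73 dph, and 0 for sex and for the interaction. Of 792 such values of members called, 72 missed the threshold and 0 turned. Of the 150 members, 60 stayed at a median of 1 RPM or more, 87 at 10 RPM or more and 33 with no limit, against 146 with either other pseudocount and 132 to 144 with a fish left out. The 48 genes of module 1 were the same in the 5 other ways of joining the genes. The number of modules of 4 or more genes was less stable. It was 3 with rank correlation, 3 with the tree divided at 0.3 and 7 with it divided at 0.5. These held 69, 66 and 88 members, against 72 members in 4 modules in the main setting. Without the 2 shallowest libraries there were 3 modules and with TMM scaling 4, with 72 members in either case. No paired analysis was possible because replicate numbers only name the fish. Low levels limit what is seen of a member in its low fish, where Nfu_g_1_009982 rested on 56 reads over 10 fish.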
